A study of Mus musculus with 8 samples.

Results

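The hypoxia-inducible factors and their targets were followed through 10 genes, chosen by symbol: the factor subunits Hif1a, Epas1 and Arnt, the oxygen-sensing prolyl hydroxylases Egln1 and Egln3, and the targets Vegfa, Adm, Slc2a1, Car9 and Ankrd37. Each of the 10 had exactly 1 row of the table with that gene as its only symbol, out of 30142 genes named in this way. All samples were ascending aortas of male C57BL/6J-background mice aged 10 weeks, bred by crossing heterozygous Fbn1mgR/+ animals. Homozygous Fbn1mgR/mgR mice, with both copies of the fibrillin-1 gene carrying mgR, gave 4 arrays, called mgR611, mgR612, mgR613 and mgR614. Wild-type mice gave the other 4, called WT675, WT676, WT742 and WT744, and no treatment was named for either genotype. The mgR allele lowers fibrillin-1 in every tissue and models Marfan syndrome with aortic aneurysm; its own transcript was not analysed here, which leaves the genotype labels unchecked. Whether each array stands for a different animal is not stated, and p-values therefore cover the spread among these 8 arrays, which may be technical.

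In the Fbn1mgR/mgR aorta 0 of the 10 genes passed the test in either direction, where 1.54% of all rows tested were called higher and 0.558% lower. Hif1a was the gene whose genotypes did not overlap, at 1.37 times the wild-type signal, and Adm had the largest difference, 2.11 times the wild-type signal with overlapping genotypes. Epas1 and Egln3 had negative differences within the spread of the samples. Vegfa, Slc2a1, Car9, Ankrd37, Arnt and Egln1 each differed by less than 0.20 on the log2 scale. Outside the 10, the lymphatic growth factor gene Vegfd rose in the mutant by 1.68 (log2).

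The factors work as pairs of an oxygen-sensitive alpha subunit, encoded by Hif1a or Epas1, and the constant partner encoded by Arnt. In the presence of oxygen, EGLN enzymes hydroxylate prolines of the alpha subunit, which marks it for ubiquitination by the von Hippel-Lindau protein and degradation; at low oxygen the pair enters the nucleus and binds short hypoxia response elements. Control is therefore largely at the protein level, which the arrays do not measure, while many target transcripts, those of Egln3, Vegfa, Adm, Slc2a1, Car9 and Ankrd37 among them, are known to rise in hypoxic cells. In the vessel wall, Epas1 is known as a gene of endothelial cells, and hypoxia-inducible factor signalling has been studied in remodelling of aortic smooth muscle and in macrophages.

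The core of a hypoxia response element is ACGTG or GCGTG. RefSeq promoter windows of 300 bases on GRCm38.p6, from 250 before to 50 after an annotated start, were matched by symbol for 9 of the 10 genes, with 2 windows for Vegfa; Epas1 was not matched. Both strands were searched. Of the 10 windows of these 9 genes, all but the first window of Vegfa held a core. The second Vegfa window, which held cores, lies within the span of the gene. The windows of Hif1a and Ankrd37 also lie wholly within the spans of their genes. Over the 32851 windows of all genes, 43.8% held a core (ACGTG in 19.6% and GCGTG in 32.4%). Such a match describes letters and is not a binding site. Shown first are Hif1a and Adm, the genes with the largest differences upward, and then Car9 and Ankrd37, targets well known from hypoxic cells. Capitals mark every core as read on the printed strand, so that a core on the other strand appears as CACGT or CACGC. The windows lie at chr12:73907617-73907916 (plus strand) for Hif1a, chr7:110627407-110627706 (plus strand) for Adm, chr4:43506776-43507075 (plus strand) for Car9 and chr8:45999801-46000100 (minus strand) for Ankrd37.
Hif1a: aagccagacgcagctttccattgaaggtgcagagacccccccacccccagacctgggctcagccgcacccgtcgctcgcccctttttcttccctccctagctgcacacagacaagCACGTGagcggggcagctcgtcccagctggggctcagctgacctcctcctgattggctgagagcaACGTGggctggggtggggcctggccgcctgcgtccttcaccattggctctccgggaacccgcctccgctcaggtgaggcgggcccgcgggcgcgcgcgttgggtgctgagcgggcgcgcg
Adm: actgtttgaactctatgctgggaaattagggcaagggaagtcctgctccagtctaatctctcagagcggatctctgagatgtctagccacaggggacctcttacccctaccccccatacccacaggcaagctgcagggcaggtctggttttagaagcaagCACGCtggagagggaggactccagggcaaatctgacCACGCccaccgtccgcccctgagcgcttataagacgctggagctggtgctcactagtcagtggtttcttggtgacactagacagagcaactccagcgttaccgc
Car9: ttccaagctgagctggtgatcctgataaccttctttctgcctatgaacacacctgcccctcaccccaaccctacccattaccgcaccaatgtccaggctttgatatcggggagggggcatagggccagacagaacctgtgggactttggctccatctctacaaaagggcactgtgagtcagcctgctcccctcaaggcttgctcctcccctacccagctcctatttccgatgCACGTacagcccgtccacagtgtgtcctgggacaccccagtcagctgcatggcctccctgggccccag
Ankrd37: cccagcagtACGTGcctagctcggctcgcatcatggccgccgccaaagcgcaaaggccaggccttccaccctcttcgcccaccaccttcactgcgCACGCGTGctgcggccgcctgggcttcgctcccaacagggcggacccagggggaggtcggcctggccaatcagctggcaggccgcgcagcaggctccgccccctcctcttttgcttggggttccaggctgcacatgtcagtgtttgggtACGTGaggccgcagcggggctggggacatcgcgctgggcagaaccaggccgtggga

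The Hif1a window held 3 cores, 2 of which overlap in the palindrome CACGTG, a letter string shared with the E-box of other basic helix-loop-helix factors and present in 7.15% of all windows. The Adm window held 2 cores, both GCGTG on the opposite strand. In Car9 the core began 18 bases before the annotated start. Ankrd37 had 4 cores, of which 1 began 6 bases before the start and a pair overlapped.

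**Figure D1:**
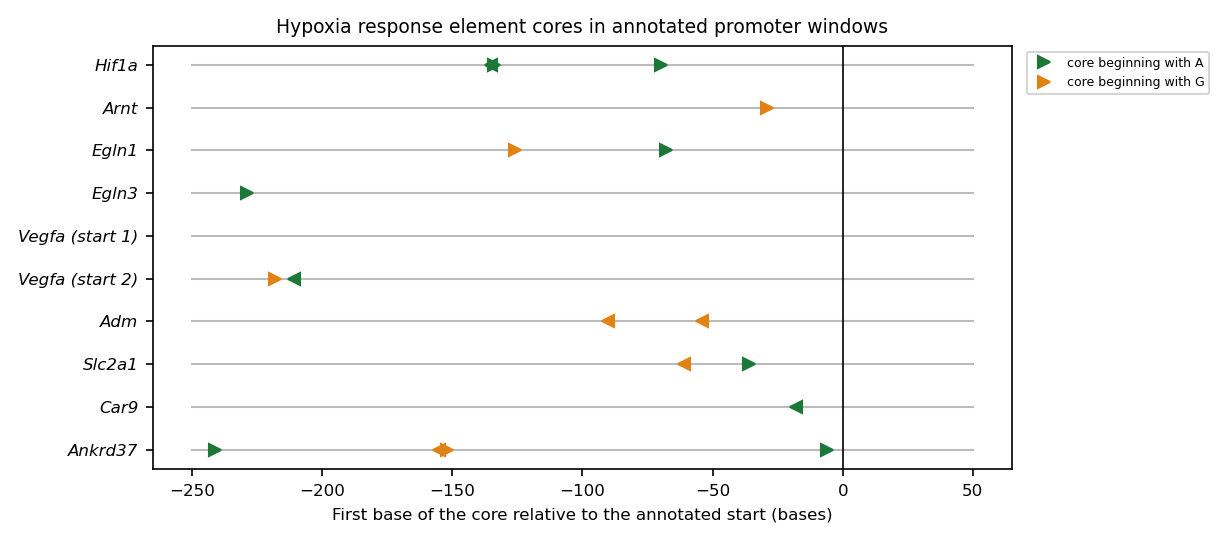
Position of each core in the 300-base promoter windows of 9 genes, in bases relative to the annotated start (vertical line); arrowheads point right for the printed strand and left for the opposite strand, green for cores beginning with A and orange for those beginning with G. Vegfa has 2 annotated starts, and the window of the first start shows no core; Ankrd37 shows 4 cores and Hif1a 3.

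The values are log2 signals as deposited, which have an arbitrary zero and are compared only between arrays for the same gene. Differences are Fbn1mgR/mgR minus wild-type and were tested with limma, a linear model that shares variance information across rows, with Benjamini-Hochberg adjustment over 32957 rows above a signal filter and a threshold of 0.05. All 10 genes passed the filter. By limma, 0 of them were called higher and 0 lower. Without adjustment, at a p under 0.05, 2 of the 10 were higher (Hif1a and Adm) and 0 lower, where 7.45% and 6.72% of all rows were. The median difference of the 10 genes was -0.05, against -0.02 over all rows tested. Intervals below are 95% intervals from the same model, without adjustment for the number of rows.

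Hif1a, the alpha subunit found in most cell types (chromosome 12), had signals of 10.8, 10.66, 10.79 and 10.87 in Fbn1mgR/mgR arrays, against 10.05, 10.24, 10.52 and 10.51 in wild-type arrays. Every mutant array lay above every wild-type array, the nearest values being 10.66 in mgR612 and 10.52 in WT742. Such a separation with the mutant above held for 1 of the 10 genes and for 5.26% of all rows tested. The difference was 0.45 (SE 0.144, limma adjusted p = 0.179), and its interval of 0.13 to 0.77 corresponds to 1.09-fold to 1.71-fold. The mutant arrays spanned 0.21 and the wild-type arrays 0.47.

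Macrophage markers separated the genotypes as well: 19 of 21 tested markers were called higher by limma, against 1.54% of all rows tested. The mean of these markers was 9.17 to 9.8 in mutant and 7.42 to 7.83 in wild-type arrays. In mgR611, mgR612, mgR613 and mgR614 the macrophage mean was 9.17, 9.8, 9.48 and 9.52. Hif1a in these arrays was 10.8, 10.66, 10.79 and 10.87. In WT675, WT676, WT742 and WT744 the macrophage mean was 7.64, 7.71, 7.42 and 7.83. Hif1a there was 10.05, 10.24, 10.52 and 10.51. In a bulk sample more cells of a type and more RNA per cell cannot be told apart, and the part of macrophages in the Hif1a difference was not tested.

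Epas1, the alpha subunit known from endothelium (chromosome 17), had signals of 12.77, 13.18, 13.61 and 12.17 in the mutant and 13.3, 13.32, 13.42 and 12.83 in the wild-type arrays. The highest and the lowest of all values were both mutant arrays, mgR613 and mgR614. The difference was -0.285 (SE 0.281, limma adjusted p = 0.738, interval -0.92 to 0.35). It rested on these arrays, at -0.03 without mgR614 (limma adjusted p = 0.975) and -0.51 without mgR613 (limma adjusted p = 0.466). Mean signals of 15 endothelial markers were 8.38, 8.93, 9.27 and 8.36 in mgR611 to mgR614, and 9.38, 9.14, 9.05 and 8.62 in WT675, WT676, WT742 and WT744. Of these markers 0 rose and 1 fell by limma, where 1.54% and 0.558% of all rows tested did. Among mutant arrays Epas1 ran in the order of the endothelial mean, from mgR614 up to mgR613. In the wild-type the array lowest in both was WT744, while the highest array differed. The part of endothelial content in Epas1 was not tested.

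Arnt, the shared partner subunit (chromosome 3), had 7.39, 7.64, 7.42 and 7.32 in the mutant and 7.49, 7.56, 7.32 and 7.58 in the wild-type arrays. The genotypes overlapped almost fully, with a difference of -0.05 (limma adjusted p = 0.928). Its interval of -0.33 to 0.24 corresponds to 0.797-fold to 1.18-fold.

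The hydroxylases come next. Egln1, the main oxygen sensor that limits the alpha subunits in normal oxygen (chromosome 8), had 8.5, 8.76, 9.18 and 8.73 in the mutant and 8.96, 8.87, 8.66 and 8.88 in the wild-type arrays. The wild-type values lay inside the mutant range (difference -0.05, limma adjusted p = 0.938, interval -0.42 to 0.32).

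Egln3 is the hydroxylase gene most readily induced by hypoxia in many cell types (chromosome 12). Its signals were 7.73, 8.62, 8.47 and 9.16 in the mutant and 8.84, 8.84, 8.86 and 8.86 in the wild-type arrays. The wild-type arrays agreed within 0.02, a range as small or smaller in 0.343% of all rows tested, while the mutant arrays spanned 1.43, a range as large or larger in 3.98% of them. Mutant values lay on both sides of the wild-type ones, with mgR614 above and the other mutant arrays below. The difference was -0.355 (SE 0.259, limma adjusted p = 0.619, interval -0.94 to 0.23). Without mgR614 and WT676, arrays that stand apart in brown fat markers (given with Vegfa), all 3 remaining mutant arrays (7.73 to 8.62) lay below all 3 wild-type arrays (8.84 to 8.86), at -0.58 (limma adjusted p = 0.422). That separation follows from leaving out mgR614, and the share of all rows that separate with 3 arrays each was not counted. Without mgR614 alone the difference was also -0.58 (limma adjusted p = 0.331), and without mgR611, the lowest array, it was -0.10 (limma adjusted p = 0.878). A difference in spread between genotypes was not tested.

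**Figure D2:**
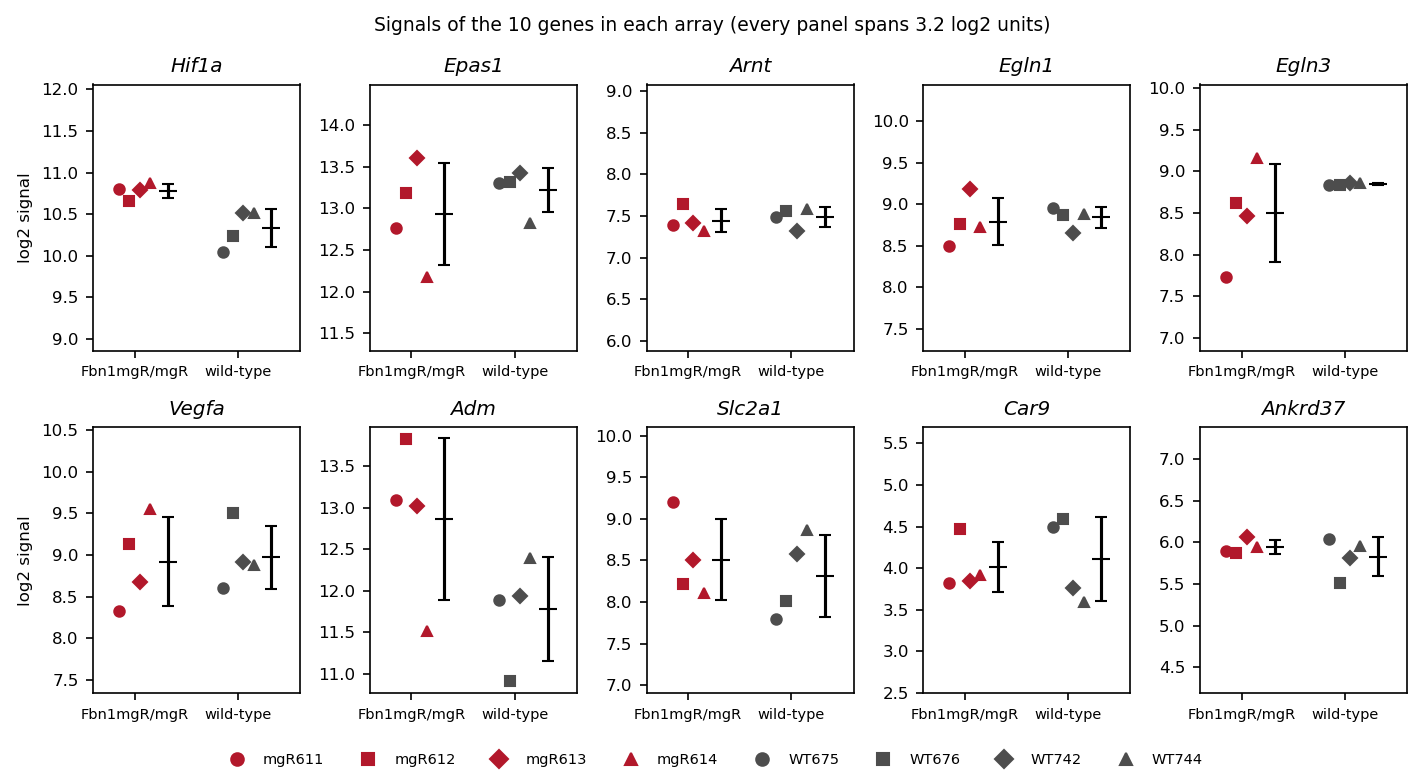
Log2 signal (vertical axes, each spanning 3.2 units) of the 10 genes in 4 Fbn1mgR/mgR arrays (red, left) and 4 wild-type arrays (grey, right), 1 symbol per array, with the mean and SD of each genotype in black. Hif1a has all mutant arrays above all wild-type arrays, and in every other gene the genotypes overlap. The wild-type arrays of Egln3 lie within 0.02 of each other.

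Vegfa encodes the main growth factor for blood vessels (chromosome 17). It had 8.32, 9.13, 8.68 and 9.55 in the mutant and 8.6, 9.5, 8.91 and 8.88 in the wild-type arrays. The genotypes covered nearly the same range, with a difference of -0.05 (SE 0.283, limma adjusted p = 0.967, interval -0.69 to 0.58).

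The highest Vegfa array of each genotype was the one with the most brown fat signal. The mean of 11 tested brown fat markers was 9.53 in mgR614 and 9.66 in WT676, and 6.25 to 7.67 in the other 6 arrays; for 9 of the 11 these were the 2 highest arrays. Ucp1, the uncoupling protein that defines brown fat, had 13.92 and 14.62 in mgR614 and WT676, and 5.59 to 10.21 elsewhere. Without both arrays the difference of Vegfa was -0.09 (SE 0.23, limma adjusted p = 0.934, 3 arrays each).

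Adm encodes adrenomedullin, a vasodilator peptide made by vascular cells and induced by hypoxia (chromosome 7). Its signals were 13.09, 13.82, 13.02 and 11.51 in the mutant, against 11.89, 10.91, 11.94 and 12.39 in the wild-type arrays. Mutant arrays mgR611, mgR612 and mgR613 were above all wild-type arrays and mgR614 was below 3 of them. The difference was 1.08 (SE 0.47, limma adjusted p = 0.339), or 2.11-fold with an interval of 1.02-fold to 4.39-fold.

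The lowest Adm array of each genotype was mgR614 or WT676, the arrays richest in brown fat markers, which is the reverse of Vegfa. Without both, Adm was 13.02 to 13.82 in mutant and 11.89 to 12.39 in wild-type arrays, which no longer overlapped. This omission was chosen after seeing the data, and the share of all rows that separate with 3 arrays each was not counted. Without both arrays the difference was 1.24 (SE 0.248, limma adjusted p = 0.101, 3 arrays each), and with a covariate for mean brown fat signal it was 1.04 (limma adjusted p = 0.14). Without mgR614 alone it was 1.53 (limma adjusted p = 0.095), and without mgR612, the highest array, 0.76 (limma adjusted p = 0.506). Adm did not pass the threshold in any of the 21 alternatives tried, with adjusted p from 0.095 to 0.533.

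**Figure D3:**
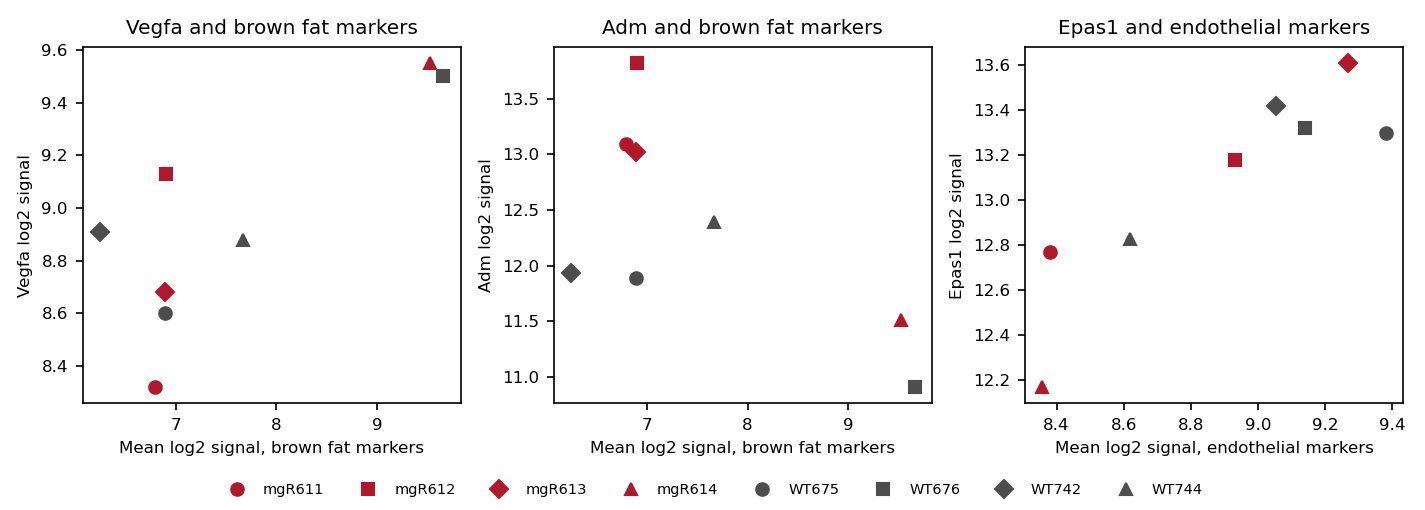
Log2 signal of Vegfa and Adm against the mean log2 signal of 11 brown fat markers, and of Epas1 against the mean of 15 endothelial markers, for 4 Fbn1mgR/mgR arrays (red) and 4 wild-type arrays (grey). The arrays mgR614 and WT676 stand at the right of the brown fat axis, high for Vegfa (9.55 and 9.5) and low for Adm (11.51 and 10.91).

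Slc2a1 encodes the glucose transporter GLUT1 (chromosome 4). It had 9.2, 8.22, 8.51 and 8.11 in the mutant and 7.8, 8.01, 8.58 and 8.86 in the wild-type arrays. Each genotype spread over more than a doubling of signal, and the difference of 0.20 (SE 0.297, limma adjusted p = 0.849, interval -0.47 to 0.86) was smaller than the SD of either genotype, 0.49 in the mutant and 0.49 in the wild-type.

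Car9 encodes a membrane carbonic anhydrase that is a marker of hypoxic tumour tissue (chromosome 4). It had 3.82, 4.47, 3.85 and 3.92 in the mutant and 4.5, 4.59, 3.76 and 3.6 in the wild-type arrays. Its mean over all arrays, 4.06, was below 4.11, the 95th percentile of olfactory receptor rows, which were taken here as a guide to low signal. Single arrays lay on both sides of that limit: mgR612, WT675 and WT676 were above it and the other 5 arrays below. The difference was -0.10 (SE 0.245, limma adjusted p = 0.917, interval -0.65 to 0.45).

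Ankrd37 encodes an ankyrin repeat protein known as a sensitive target of the factors (chromosome 8). It had 5.9, 5.87, 6.06 and 5.94 in the mutant and 6.04, 5.51, 5.81 and 5.96 in the wild-type arrays. The mutant arrays agreed within 0.19 and lay inside the range of the wild-type arrays but for mgR613, just above it. The difference was 0.11 (SE 0.134, limma adjusted p = 0.794), and its interval of -0.19 to 0.41 corresponds to 0.878-fold to 1.33-fold.

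**Figure D4:**
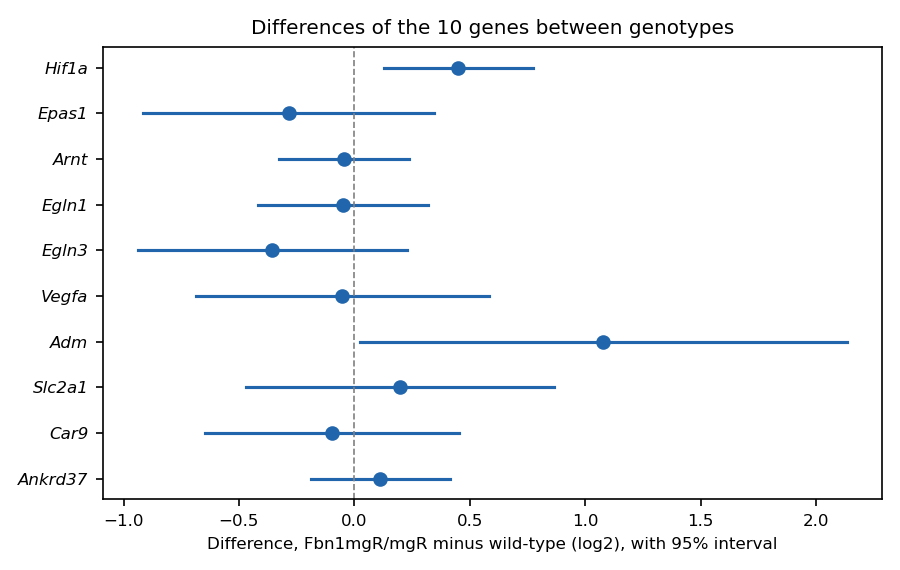
Difference between Fbn1mgR/mgR and wild-type aorta (log2, horizontal axis) for each of the 10 genes, with points for the estimate and lines for the 95% interval from limma before adjustment for multiple rows. The intervals of Hif1a (0.13 to 0.77) and Adm (0.02 to 2.13) lie above 0, and those of the other 8 genes include 0.

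Wider lists of the pathway were compared with the same fit. Of 12 other subunit, cofactor and oxygen sensor genes tested, limma called 0 higher and 0 lower (0 and 3 before adjustment, at p under 0.05), with a median difference of -0.07. Before adjustment, 7.45% of all rows tested were higher and 6.72% lower. Egln2, a further prolyl hydroxylase, had 7.26, 7.23, 7.18 and 7.08 in the mutant and 7.45, 7.44, 7.46 and 7.47 in the wild-type arrays. All mutant arrays lay below the tight wild-type group, as in 3.65% of all rows tested, at a difference of -0.27 (limma adjusted p = 0.290). P4htm, a transmembrane prolyl hydroxylase gene, was at -0.345 (limma adjusted p = 0.244), Crebbp, a coactivator of the factors, at -0.34 (limma adjusted p = 0.324), and Eloc, encoding elongin C of the von Hippel-Lindau complex, at 0.295 (limma adjusted p = 0.353).

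Glucose uptake and glycolysis genes, classical targets of the factor with Hif1a, had 0 called higher and 0 lower by limma among 18 tested. Before adjustment, at p under 0.05, 1 was higher and 1 lower, where 7.45% and 6.72% of all rows tested were. Their median difference was 0.02. The smallest p values belonged to Pfkfb3, a regulator of glycolytic flux, at -0.535 (limma adjusted p = 0.340), and Pgk1, phosphoglycerate kinase, at 0.45 (limma adjusted p = 0.348). The Pgk1 value is that of the brighter of 2 rows with this symbol. The identifier of that row carries the prefix of chromosome 12, as that of Hif1a does. Whether that row reads the Pgk1 gene itself was not checked, so its value is not shown to be that of phosphoglycerate kinase. This row is also the 1 counted higher before adjustment. Pfkp, a phosphofructokinase gene, was at -0.47 (limma adjusted p = 0.453) and Eno2, an enolase gene, at 0.13 (limma adjusted p = 0.508).

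Among 43 other hypoxia-responsive genes, 2 rose and 2 fell, or 9.3% in either direction against 2.1% of all rows tested. That background includes rows without a single gene symbol, which the list does not. With adjustment over the 18122 tested rows with 1 symbol alone, 480 were called higher and 134 lower, a larger share than 2.1%. The list had a median difference of -0.06, with 10 above and 7 below wild-type before adjustment, at p under 0.05. Those shares over all rows tested were 7.45% and 6.72%. Pgm2, a gene of the phosphoglucomutase family, had 8.84, 8.73, 9.12 and 9.03 in the mutant and 8.05, 8.22, 8.16 and 7.85 in the wild-type arrays, a rise of 0.86 (SE 0.144, limma adjusted p = 0.018). Anxa2, encoding the membrane-binding annexin A2, had 13.25, 13.2, 13.46 and 13.16 against 12.85, 12.55, 12.47 and 12.42 in the wild-type arrays, a rise of 0.695 (SE 0.132, limma adjusted p = 0.0292). In both genes the genotypes did not overlap, as in 5.26% of all rows tested with the mutant above.

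Stc2, which encodes the secreted glycoprotein stanniocalcin-2, had 4.76, 4.54, 4.59 and 4.5 in the mutant and 5.48, 5.13, 5.5 and 5.08 in the wild-type arrays. Stc2 fell by 0.70 (SE 0.128, limma adjusted p = 0.0252). Vldlr, a lipoprotein receptor gene, had 7.17, 7.32, 7.21 and 7.12 in the mutant and 7.58, 7.98, 7.86 and 8.12 in the wild-type arrays. Vldlr fell by 0.68 (SE 0.142, limma adjusted p = 0.0443), so that genes of 1 list moved in both directions. With 1 array left out the differences stayed close to those over all arrays, at 0.79 to 0.93 for Pgm2, 0.63 to 0.79 for Anxa2, -0.77 to -0.63 for Stc2 and -0.78 to -0.60 for Vldlr, while several calls were lost. All 4 missed the threshold without mgR613 or without mgR614, with adjusted p from 0.0533 to 0.115; the calls over all rows, 507 higher, were then 318 and 321. Pgm2 was also lost without WT675 (0.0577) or WT744 (0.0619), and Stc2 without mgR612 (0.0617), WT675 (0.0739) or WT742 (0.0625). Anxa2 was lost without mgR611, mgR612, WT676, WT742 or WT744 (adjusted p 0.0558 to 0.103), and Vldlr without each of these too, with adjusted p from 0.0663 to 0.131. Without both mgR614 and WT676 the differences were 0.88 for Pgm2, 0.72 for Anxa2, -0.72 for Stc2 and -0.62 for Vldlr, with limma adjusted p of 0.0918, 0.121, 0.111 and 0.222 on 3 arrays each. The macrophage mean separated the genotypes as these genes did, and its part in them was not tested.

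Ligands and receptors around Vegfa and Adm held 1 gene that rose and 0 that fell by limma among 12 tested (2 and 2 before adjustment, at p under 0.05), with a median difference of -0.03. Of all rows tested, 1.54% were called higher and 0.558% lower, and 7.45% and 6.72% were higher and lower before adjustment. Vegfd, a ligand gene of the VEGF family, had 13.61, 14.39, 13.98 and 13.83 in the mutant against 11.77, 12.31, 12.7 and 12.33 in the wild-type arrays. Every mutant array exceeded every wild-type array, as in 5.26% of all rows tested. The rise was 1.68 (SE 0.221, limma adjusted p = 0.00569), or 3.19-fold with an interval of 2.26-fold to 4.5-fold. The Vegfd call held with each array left out in turn, and without both mgR614 and WT676 the rise was 1.73 with a limma adjusted p of 0.0512. The part of the macrophage shift in Vegfd was not tested either.

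Its relative Vegfa did not pass, nor did the receptor genes. Kdr, the main signalling receptor of VEGF in blood vessels, was at -0.79 (limma adjusted p = 0.337), and Nrp2, a VEGF co-receptor, at 0.76 (limma adjusted p = 0.332). Ramp2, which gives the calcitonin-receptor-like receptor its affinity for adrenomedullin, had 6.89, 7.5, 7.86 and 6.83 in the mutant and 8.44, 7.95, 7.87 and 7.75 in the wild-type arrays (difference -0.73, limma adjusted p = 0.218). All but 1 of the mutant Ramp2 values, that of mgR613, lay below the wild-type range.

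**Figure D5:**
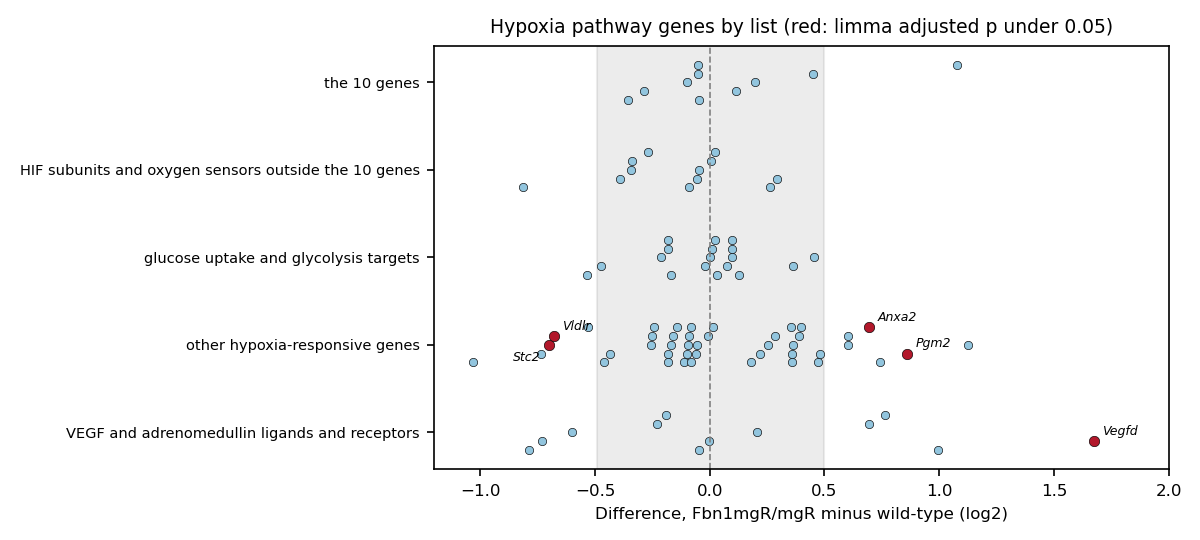
Differences between Fbn1mgR/mgR and wild-type aorta (log2, horizontal axis) for the 10 genes and for 4 wider lists, 1 point per tested gene, with genes past a limma adjusted p of 0.05 in red and named. The grey band runs from the 5th to the 95th percentile of all rows tested (-0.49 to 0.50); Vegfd stands at 1.68, and the points of the glycolysis list lie within 0.535 of 0.

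For the 3 genes with the smallest p among the 10, the profiles most like theirs were sought among 12435 other named genes by Pearson correlation over the 8 arrays. Nipa2, a magnesium transporter gene (0.974), Pla2g4a, encoding cytosolic phospholipase A2 (0.974), and Plekho2 (0.968) came closest to Hif1a, with differences of 0.37, 0.53 and 0.775 that did not pass. Adm was followed most closely by Atp6v0d1, a proton pump subunit gene (0.95), Klhl29 (0.934) and the tyrosine phosphatase gene Ptpn2 (0.933). Trmt44, a transfer RNA methyltransferase gene (0.951), Zfp292 (0.927) and Zmym1 (0.926) came closest to Egln3. These are the highest values of a search over many genes, and the arrays share the genotype split.

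Array medians lay between 3.95 and 4.07. Contractile smooth muscle markers averaged 11.3 to 12.2 in mutant and 12.04 to 12.69 in wild-type arrays, with 0 of 16 called by limma (0 higher and 6 lower before adjustment, at p under 0.05), so the smooth muscle of the labelled aorta was present in every array. Fibroblast markers averaged 11.75 to 12.41 and 11.99 to 12.25, and 1 of 9 rose. White adipocyte markers were 7.49 to 9.8 and 7.65 to 10.1, with mgR614 and WT676 again highest and 0 of 8 called (0 and 1 before adjustment, at p under 0.05). Striated muscle markers were 6.29 to 6.7 in the mutant and 6.65 to 7.6 in the wild-type, with 1 of 9 lower, and the 2 red cell markers tested were 5.89 to 7.09 and 6.37 to 6.82. Beside these counts, limma called 1.54% of all rows tested higher and 0.558% lower. Before adjustment, at p under 0.05, the shares were 7.45% and 6.72%.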

How the data were processed

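The authors deposited log2 signals per transcript cluster from Affymetrix Clariom D mouse arrays. Per the submitters' processing notes, Transcriptome Analysis Console was used, with no version named; the normalization is not given in the sources used here. Of 65956 rows, 30604 carried 1 gene symbol after repeated symbols were merged, 2146 several and 33206 none; 827 symbols were updated through gene IDs of GRCm38.p6. The brightest row stood for a gene.

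Variance was moderated over all rows with an intensity trend (limma 3.58.1, R 4.3.3), and p-values were adjusted over the 32957 rows whose mean exceeded the median of 4.01. In data simulated for this comparison with 65956 rows, 55.3% of changes of 1 log2 unit and 94.7% of changes of 2 were called. The number of arrays limits precision, and the median SE was 0.151. Promoter cores were searched in Python 3.11.15 (pandas 2.3.3), and matplotlib 3.10.9 drew the figures.

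The 10 genes, the lists and the tests were chosen with earlier results of these data known. Named were the 10 genes, up to 4 genes of each pathway list with the smallest p plus any past the threshold, and the 3 genes most like each of the 3 genes with the smallest p. Alternatives covered moderation, array weights, filters, scaling, thresholds, a brown fat covariate and arrays left out. After seeing the data, 2 were added: moderation over tested rows alone, and omission of mgR614 with WT676.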

Additional observations from a re-analysis of the deposited data

Results flagged for a closer look

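In the Fbn1mgR/mgR group, Car9 was 4.47 in mgR612 against 3.82 to 3.92 in the other 3 mutant arrays, a gap of 0.846 of the group's range. It was the only such value among 20 sets of 4 arrays (10 genes in 2 genotypes), where chance gives about 1 in 20. WT675 and WT676 had similar signals of 4.5 and 4.59. These 3 values lay above 4.11, the 95th percentile of olfactory receptor rows, and the other 5 Car9 values below it.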

How the results depend on the processing

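No paired analysis was possible because the genotypes share no replicate numbers. Each of the 10 genes had 1 row, so other rows could not stand for it. In 21 alternatives 0 of the genes tested were called in either direction, with all 10 tested in each except Car9, which the upper-quartile filter left out; Hif1a stayed at 0.36 to 0.51 (adjusted p from 0.0936 to 0.452). Directions turned for 6 of the 10 genes, none of them called. With 1 array left out, Egln1 ranged from -0.1792 to 0.0475, Vegfa from -0.2625 to 0.1475, Slc2a1 from -0.0325 to 0.38 and Car9 from -0.2683 to 0.06167; above 0 were Egln1 and Vegfa without mgR611, Vegfa without mgR613 (0.0275) or WT676 (0.1233) and Car9 without WT675 (0.03167) or WT676, and below 0 was Slc2a1 without mgR611. Without mgR614 and WT676, the arrays richest in brown fat signal, Epas1, at -0.285 over all arrays, was 0.003333, Arnt 0.02 and Car9 0.09333. The wider lists held 3 higher and 2 lower genes; lower were 1 with no filter, 1 above the upper quartile, 1 with median centring and 1 with the brown fat covariate. At an adjusted p under 0.01 they were 1 higher and 0 lower, without both brown fat arrays 0 and 0 (Vegfd 1.73, adjusted p = 0.0512), and with 1 array left out 1 to 2 and 0 to 1. Over all rows, 507 higher and 184 lower became 816 and 393 at 0.1, 187 and 40 at 0.01, 171 and 77 without both brown fat arrays, 272 to 524 and 66 to 146 with 1 array left out, and 99 lower with no filter. Causes were not tested, beyond fewer arrays or other thresholds by construction.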
